A study of Mus musculus with 40 samples.

Results

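The 8 genes described here are Nr3c1, Fkbp5, Tsc22d3, Zbtb16, Dusp1, Hsd11b1, Mt1 and Mt2, a set named for the glucocorticoid response and the metallothioneins. They were found by matching the Ensembl identifiers of a count table of 52636 genes to symbols, and all 8 were present and among the 17079 genes with enough counts to be tested. Their expression was followed in brown adipose tissue, the heat-producing fat of the mouse, of 40 male C57BL/6 mice in 8 groups of 5. Every mouse received antibody once, into the peritoneum. In control mice this was an isotype antibody to ragweed, a plant antigen, at 40 mg/kg. Jag antibody mice were given antibodies blocking Jag1 and Jag2, which activate Notch receptors, at 20 mg/kg each. Both treatments were sampled at 15 h, at 5 d and at 7 d. A further control group and a further Jag antibody group, also sampled at 7 d, were dosed each day from day 2 with thyroid hormone, thyroxine (T4) at 1 ug and triiodothyronine (T3) at 0.05 ug per g of body weight. The mice were 10 to 12 weeks old by the series text and 10 to 14 weeks old by the sample text, and the clock hour of collection is not given in the sources used here.

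Glucocorticoids are steroid hormones of the adrenal gland, released in a daily rhythm and in stress, and corticosterone is the main one in the mouse. Corticosterone enters the cell and binds the glucocorticoid receptor, the product of Nr3c1, which Hsp90 chaperones and their partners hold in the cytoplasm. The bound receptor moves to the nucleus and raises or lowers the transcription of many genes. In brown fat, glucocorticoids are known to act on thermogenic genes. Metallothioneins are small cysteine-rich proteins that bind zinc and copper, and their genes are induced by metals through the zinc-sensing factor Mtf1 and also by glucocorticoids.

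The promoters of the metallothionein genes carry the short motifs that Mtf1 recognises, the metal response elements, and Dusp1 carries a cAMP response element. These 3 promoters are shown because Mt1 and Mt2 varied together between mice and Dusp1 varied with immediate early genes. The sequences are those of RefSeq on GRCm38.p6, 5′ to 3′ on the strand of the gene, from 250 bases before to 30 bases after the start. Capitals mark the metal response element cores TGCACNC and TGCGCNC on either strand in Mt1 and Mt2, and the cAMP response element TGACGTCA in Dusp1. Mt1 lies at chr8:94178839-94179118 on the plus strand, Mt2 at chr8:94172368-94172647 on the plus strand and Dusp1 at chr17:26508443-26508722 on the minus strand.
Mt1: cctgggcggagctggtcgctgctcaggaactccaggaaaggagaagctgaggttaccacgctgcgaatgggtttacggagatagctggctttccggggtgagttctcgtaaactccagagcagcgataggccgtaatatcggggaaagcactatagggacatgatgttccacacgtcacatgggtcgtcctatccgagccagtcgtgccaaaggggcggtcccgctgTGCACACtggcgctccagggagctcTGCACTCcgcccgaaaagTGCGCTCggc
Mt2: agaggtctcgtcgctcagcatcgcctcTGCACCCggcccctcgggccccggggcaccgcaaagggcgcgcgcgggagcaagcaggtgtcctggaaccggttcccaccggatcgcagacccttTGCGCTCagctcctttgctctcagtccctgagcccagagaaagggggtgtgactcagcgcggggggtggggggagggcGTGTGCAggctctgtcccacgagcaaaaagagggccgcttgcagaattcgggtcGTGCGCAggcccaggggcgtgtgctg
Dusp1: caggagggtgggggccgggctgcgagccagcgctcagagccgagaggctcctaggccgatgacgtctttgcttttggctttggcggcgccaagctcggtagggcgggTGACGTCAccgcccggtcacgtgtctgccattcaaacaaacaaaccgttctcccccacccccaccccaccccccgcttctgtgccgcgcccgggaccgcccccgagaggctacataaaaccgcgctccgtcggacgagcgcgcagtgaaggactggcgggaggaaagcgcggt

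The Mt1 window held 3 cores and the Mt2 window held 4. Relative to the start, the Mt1 cores began at -23, 2 and 20 and the Mt2 cores at -223, -128, -50 and 4, so some lie after the start. Of 32851 RefSeq promoter windows of the same 280 bases, 11.7% held TGCACNC, 14.4% held TGCGCNC and 24.1% held either. At least 3 cores of either form were present in 1.73% of windows and at least 4 in 0.405%. The palindrome TGACGTCA of Dusp1 was in 1.74% of windows. The Dusp1 window also held 1 TGCGCNC core on the opposite strand, not capitalised. The Hsd11b1 window, not shown, held 1 TGCACNC core on the opposite strand. The full glucocorticoid response element, AGAACA and TGTTCT separated by any 3 bases, was in 0.00913% of all windows and in none of those of Fkbp5, Tsc22d3, Hsd11b1, Mt1, Mt2 and Dusp1. Nr3c1 and Zbtb16 had no window here. These matches describe letters and were not tested for binding.

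The genes lie on separate chromosomes apart from 2 pairs. In GENCODE M21 on GRCm38, Mt2 (chromosome 8, 94172664 to 94173568) and Mt1 (chromosome 8, 94179082 to 94180327) are neighbours on the plus strand. Dusp1 (chromosome 17, 26505590 to 26562128) and Fkbp5 (chromosome 17, 28399094 to 28517527) are both on the minus strand, as are Nr3c1 (chromosome 18, 39410545 to 39519421), Zbtb16 (chromosome 9, 48654297 to 48836222), Hsd11b1 (chromosome 1, 193221634 to 193264075) and Tsc22d3 (chromosome X, 140539528 to 140600659). The exons of Mt2 overlap those of Gm45774, an antisense gene, and annotated exons of Dusp1 overlap those of Ergic1 on the other strand. Whether counting used the strand is not given in the sources used here, so the Mt2 and Dusp1 values are uncertain to that extent. Gm45774 had 37 to 2944 counts per library (median 197.5), against 159 to 10218 for Mt2.

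The libraries held 12217623 to 36511893 counts. All 8 brown adipocyte markers examined, Ucp1 among them, were counted in every library. Skeletal muscle transcripts were present at very different levels, with a summed level of 8 markers from 0.878 CPM to 175926 CPM, and 6 of those 8 markers were lower in Jag antibody than in control mice at 5 d. Myeloid transcripts also moved with several groups, and their values stand beside the results they touch. In 3 libraries, control mouse 2 at 15 h, control mouse 5 at 5 d and Jag antibody mouse 6 at 7 d, the median correlation of log2 CPM with the other mice of the group was under 0.90. Because RNA came from whole tissue, a change in the number of cells of a type cannot be told apart from a change in RNA per cell.

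Per length, the metallothioneins were the most abundant of the 8 genes when all groups were pooled. Mean RPKM over the 40 libraries, computed from counts and exonic length, was 195 for Mt1 and 120 for Mt2. It was 65.4 for Hsd11b1, the enzyme that regenerates corticosterone from its inactive keto form, and 22.9 for Dusp1, a phosphatase that switches off MAP kinases. For the receptor gene Nr3c1 it was 17.2. The lowest levels were 13.8 for Tsc22d3 (GILZ, an anti-inflammatory leucine zipper protein), 9.36 for Zbtb16 (PLZF, a zinc finger transcription factor) and 4.42 for Fkbp5 (FKBP51, an Hsp90 co-chaperone that lowers the receptor's affinity for hormone). This order depended on the group. In Jag antibody mice given hormone the mean RPKM of Zbtb16 (21.7), Tsc22d3 (20.9) and Fkbp5 (17.4) was above that of Nr3c1 (15.97). At 7 d in Jag antibody mice the mean of Tsc22d3 (21.1) was above that of Nr3c1 (19.1) and Dusp1 (18.6). The place of Tsc22d3 there rests on mouse 6, at 38.9, since the other mice were at 13.5 to 23.0.

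Group means spread most for Fkbp5, by 4.80 log2 units between control mice at 7 d and Jag antibody mice given hormone. Zbtb16 followed with 3.44 between the same groups, and Nr3c1 spread least, with 1.01. When each gene's 8 group means were put in order, 56 pairs of neighbouring groups arose over the 8 genes. Their mice overlapped in all but 1 pair, which was Fkbp5 in Jag antibody mice given hormone over the next group, control mice given hormone. Variation between mice of one group also differed between genes. The pooled within-group SD of log2 CPM was 1.40 for Mt2, above that of 97.4% of tested genes. It was 0.95 for both Mt1 and Fkbp5 and 0.39 for Nr3c1, against a median of 0.47 over all tested genes. Of the 1882 genes within 1 log2 unit of Nr3c1 in mean level, 63.3% had a lower SD than Nr3c1.

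**Figure D1:**
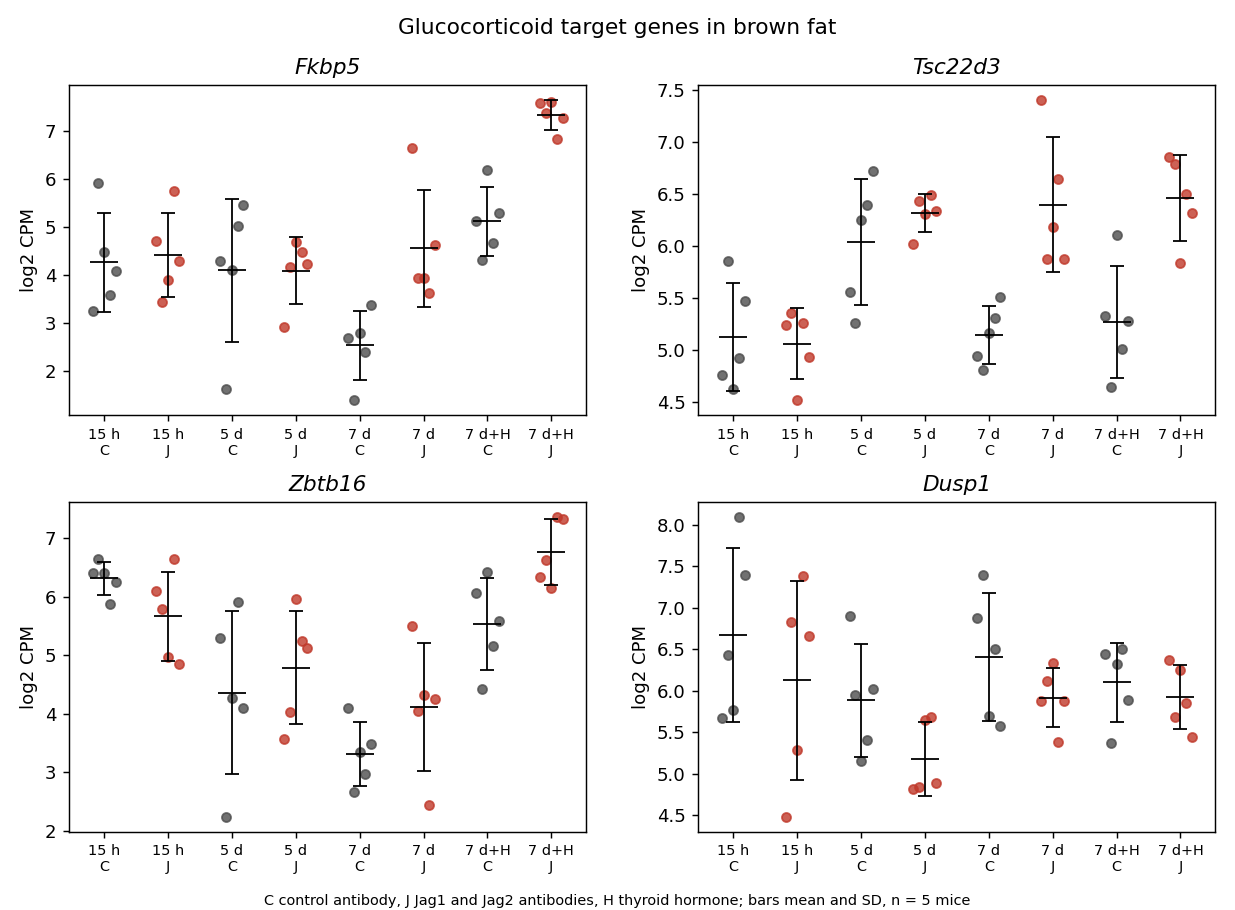
Log2 CPM (vertical axis) of the 4 glucocorticoid target genes in each of the 8 groups (horizontal axis, time after antibody). Points are mice, bars mean and SD (n = 5). All 5 Jag antibody mice given hormone (last column) lie above every control mouse given hormone for Fkbp5, and control mice at 7 d are the lowest group for Fkbp5 and Zbtb16.

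The antibody comparison asks what blockade of Jag1 and Jag2 changed at each time. Of the 8 genes, Fkbp5 and Tsc22d3 were higher in Jag antibody than in control mice at 7 d, and no member was called at 15 h or 5 d. A gene is called when its adjusted p is under 0.05 in edgeR's quasi-likelihood test, with Benjamini-Hochberg adjustment over the 17079 genes. The share of all tested genes called was 1.14% at 15 h, 8.02% at 5 d and 2.5% at 7 d, so 2 of 8 members at 7 d stands beside a background of 2.5%.

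Fkbp5 in control mice at 7 d was at 2.69, 1.40, 2.81, 2.40 and 3.39 log2 CPM in mice 1 to 5. Jag antibody mice 6 to 10 were at 6.65, 3.95, 3.95, 3.62 and 4.64. The groups did not overlap (as for 3.31% of all tested genes), but only narrowly so, since Jag antibody mouse 9 was just above control mouse 5, and mouse 6 stood far above the other Jag antibody mice. The fitted log2 fold change was 2.41 (SE 0.61, 95% interval 1.17 to 3.65), a 5.31-fold higher level, with an edgeR adjusted p of 0.0282. Without mouse 6 the change was 1.42 and no longer called (edgeR adjusted p = 0.189), and the call was also lost without control mouse 2 or control mouse 4. It was lost in 5 of 10 alternative analyses, over which the adjusted p ranged from 0.00163 to 0.211.

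Tsc22d3 was at 4.94, 4.81, 5.16, 5.30 and 5.51 log2 CPM in control mice at 7 d and at 7.40, 5.87, 6.18, 6.65 and 5.87 in Jag antibody mice. Every Jag antibody mouse was above every control mouse, again with mouse 6 highest. The log2 fold change was 1.35 (SE 0.29, 95% interval 0.76 to 1.95, edgeR adjusted p = 0.00965), or 2.56-fold. Without mouse 6 it was 1.01 with an adjusted p of 0.064, and the call was also lost when only these groups were fitted (adjusted p = 0.09). The muscle score of mouse 6 was 12.3, against 0.371 to 6.18 in the other Jag antibody mice, and the Tsc22d3 call held with that score as a covariate. The muscle score is the mean log2 CPM of the 8 muscle markers. Clock genes, whose level follows the hour of the day, summed to 198 to 556 CPM in control and 466 to 697 CPM in Jag antibody mice at 7 d, with none of 9 called. Their part in the Fkbp5 and Tsc22d3 differences was not tested.

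Zbtb16 gave 1.02 at 7 d (SE 0.51, edgeR adjusted p = 0.251), with overlapping groups, 3.31 ± 0.55 in control and 4.12 ± 1.09 in Jag antibody mice (log2 CPM, SD, n = 5). Dusp1 was at 6.41 ± 0.77 and 5.91 ± 0.35, a log2 fold change of -0.62 with a 95% interval of -1.51 to 0.27. The receptor gene Nr3c1 gave 0.33 (-0.16 to 0.83), Hsd11b1 -0.01 (-0.90 to 0.89), Mt1 -0.38 (-1.54 to 0.77) and Mt2 0.01 (-1.66 to 1.68). None of these 6 genes passed the test, and the interval for Mt2 was the widest.

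At 15 h and 5 d the 8 genes overlapped between antibody groups throughout, where only 2.48% and 4.94% of all tested genes did not overlap. The log2 fold changes ran from -0.53 (Mt2, whose mean log2 CPM was slightly higher with the antibodies) to 0.60 (Hsd11b1) at 15 h and from -0.79 (Dusp1) to 0.27 (Nr3c1) at 5 d. Their medians were -0.16 and 0.00 against -0.04 and 0.04 over all tested genes. In edgeR 0 members were called at either time, and 0 were called by DESeq2, limma or any other alternative. At an unadjusted p under 0.05 there were 0 members at either time, against 12% of all genes at 15 h and 22.9% at 5 d. The change in the antibody effect from 15 h to 7 d was 1.47 for Tsc22d3 (SE 0.41, edgeR adjusted p = 0.0609) and 2.37 for Fkbp5 (SE 0.82, adjusted p = 0.129). Neither passed the test, for which 1.31% of all genes were called. At an unadjusted p under 0.05 there were 3 of 8 members and 17% of all genes, so an effect at 7 d that is larger than at 15 h was not shown for either gene. For the change from 15 h to 5 d edgeR called 0 members and 0.0995% of all genes, and at an unadjusted p under 0.05 there were 0 members and 14.6% of all genes. For the change to 7 d DESeq2 and the fit with the muscle score each called Tsc22d3 (adjusted p = 0.0294 and 0.0309).

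In mice given hormone, Tsc22d3 was again higher with the Jag antibodies, and 1 of 8 members was called against 1.14% of all genes. Control mice given hormone had 5.32, 4.64, 6.10, 5.01 and 5.27 log2 CPM and Jag antibody mice given hormone had 6.86, 6.78, 5.83, 6.50 and 6.32. The groups overlapped only through control mouse 3, the highest control, and Jag antibody mouse 8, the lowest of its group. The log2 fold change was 1.15 (SE 0.29, edgeR adjusted p = 0.0383). The call was lost in 2 of 10 alternatives and when any of 7 of the 10 mice was left out (adjusted p up to 0.131): control mice 1, 2, 4 and 5 and Jag antibody mice 6, 7 and 10.

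Fkbp5 was at 5.13, 4.32, 6.21, 4.68 and 5.30 log2 CPM in control mice given hormone and at 7.60, 7.39, 7.62, 6.84 and 7.27 in Jag antibody mice given hormone. Those groups did not overlap, and the Jag antibody mice lay close together, with an SD of 0.32. The fitted log2 fold change was 2.09 (4.27-fold, SE 0.59, 95% interval 0.89 to 3.30) and did not pass in the fit over all 8 groups (edgeR adjusted p = 0.0718). It was called in none of the 10 leave-one-out fits (adjusted p from 0.0634 to 0.185). It was called in 8 of 10 alternatives, with an adjusted p of 0.0097 when only these groups were fitted, and the groups of 6.59% of all genes did not overlap in this comparison. Zbtb16 gave 1.16 (SE 0.50, adjusted p = 0.328), and the other 5 genes ran from -0.20 (Dusp1) to 0.78 (Hsd11b1), with no call. The 7 d and the 7 d with hormone comparisons use separate mice. The difference between them, the antibody by hormone interaction, was -0.32 for Fkbp5 (-1.97 to 1.33) and -0.21 for Tsc22d3 (-1.03 to 0.62). In edgeR 0 members were called for the interaction, with 0.00586% of all genes called. At an unadjusted p under 0.05 there were 0 members, against 12.3% of all genes, and the intervals leave room for a sizeable difference in either direction.

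**Figure D2:**
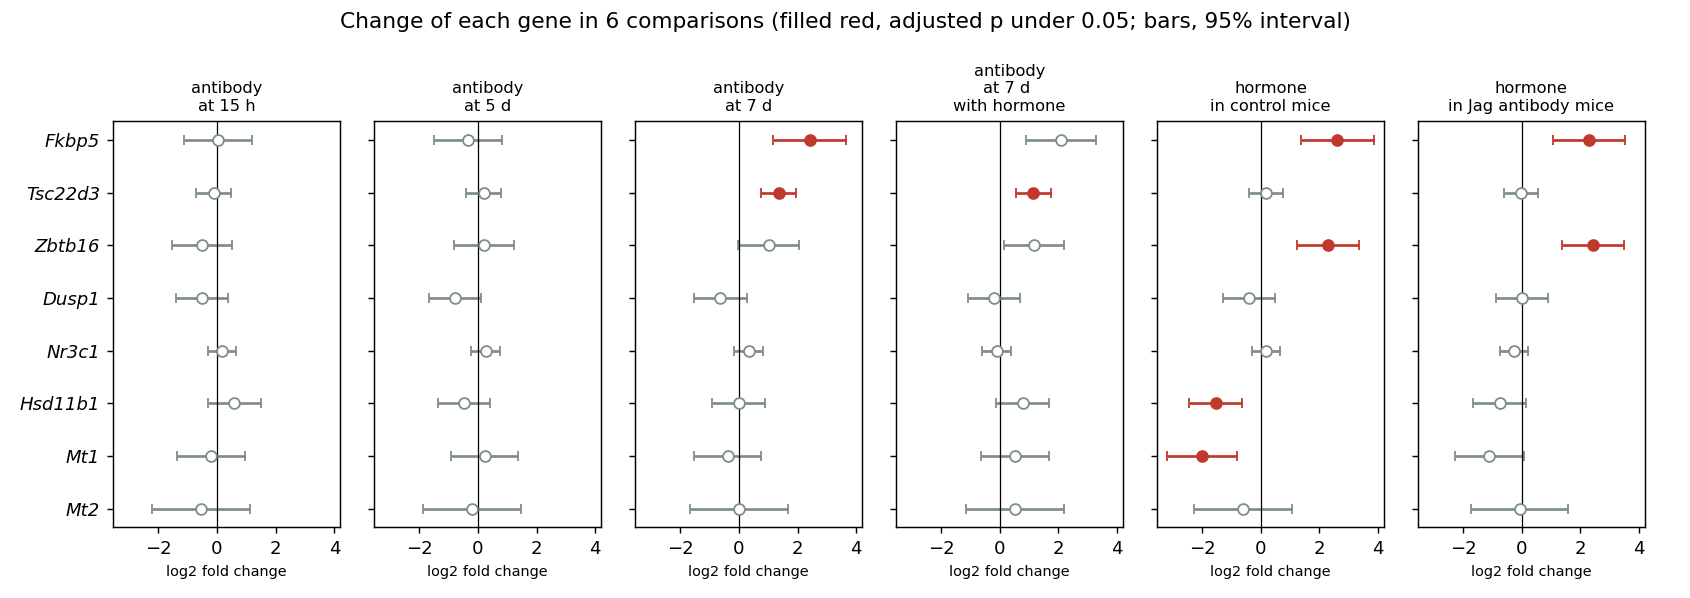
Log2 fold change (horizontal axis) of each of the 8 genes (vertical axis) in 6 comparisons of groups of 5 mice. Points are edgeR estimates, bars 95% intervals, and filled red marks an adjusted p under 0.05. Fkbp5 and Zbtb16 sit to the right in both hormone comparisons, and the Mt2 intervals are the widest in every panel.

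The hormone comparison asks what thyroid hormone changed at 7 d within one antibody. In control mice Fkbp5 and Zbtb16 rose while Hsd11b1 and Mt1 fell, 4 of 8 members against 43.2% of all tested genes, so the share of members is near the background. In Jag antibody mice Fkbp5 and Zbtb16 rose, 2 of 8 against 9.5%. Each comparison has its own hormone group and its own untreated group, and each untreated group also serves in the 7 d antibody comparison.

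Fkbp5 rose in control mice from 1.40 to 3.39 log2 CPM without hormone to 4.32 to 6.21 with it, a log2 fold change of 2.61 (SE 0.61, 6.11-fold, edgeR adjusted p = 0.00102). In Jag antibody mice the change was 2.29 (SE 0.59, 4.91-fold, adjusted p = 0.0128). Neither pair of groups overlapped (29.8% of all genes did not overlap in control and 12% in Jag antibody mice), although Jag antibody mouse 6 without hormone, at 6.65, came close to the lowest hormone-treated mouse of that antibody, at 6.84. Both calls held in all 12 alternatives and without any single mouse. Without that mouse 6 the change in Jag antibody mice was larger, at 3.28.

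Zbtb16 was at 4.10, 2.66, 3.36, 2.97 and 3.48 log2 CPM in control mice without hormone and at 6.07, 4.43, 6.42, 5.16 and 5.58 with it. Jag antibody mice had 5.50, 4.05, 4.32, 2.45 and 4.26 without hormone and 6.34, 6.62, 6.15, 7.36 and 7.32 with it. Every hormone-treated mouse was above every untreated mouse of its antibody. The log2 fold changes were 2.29 (SE 0.53, edgeR adjusted p = 0.000821) in control and 2.43 (SE 0.52, adjusted p = 0.00301) in Jag antibody mice. These calls too held in all 12 alternatives and all leave-one-out fits.

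Tsc22d3 and Dusp1, the other glucocorticoid targets among the members, did not pass with hormone under either antibody. Tsc22d3 gave 0.19 (-0.40 to 0.78) in control and -0.02 (-0.60 to 0.57) in Jag antibody mice. Dusp1 gave -0.41 (-1.30 to 0.48) and 0.01 (-0.87 to 0.90). The difference between these changes and that of Fkbp5 was not tested. Nr3c1 gave 0.18 (-0.31 to 0.68) and -0.26 (-0.75 to 0.23).

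Hsd11b1 fell with hormone in control mice. It was at 9.22, 8.77, 8.61, 8.33 and 8.40 log2 CPM without hormone and 7.98, 7.33, 6.86, 6.52 and 6.60 with it, with no overlap. The log2 fold change was -1.54 (SE 0.45, 0.345 times the untreated level, edgeR adjusted p = 0.006). With the myeloid score as a covariate it was -1.04 and not called (adjusted p = 0.0508). Under the Jag antibodies it was -0.75 (SE 0.44, adjusted p = 0.267), and the untreated group spread widely, from 6.37 in mouse 8 to 10.01 in mouse 9.

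Mt1 also fell with hormone in control mice, from 7.92, 8.75, 8.13, 9.82 and 8.05 log2 CPM without hormone to 7.31, 5.66, 6.62, 7.12 and 6.40 with it. The lowest untreated mouse, 1, was above the highest treated mouse. The log2 fold change was -2.0 (SE 0.59, 0.251 times the untreated level, edgeR adjusted p = 0.00648). Under the Jag antibodies it was -1.10 (SE 0.57, adjusted p = 0.21). With offsets for the trend of each library on gene length and GC content, the change in control mice was -1.21 and not called (adjusted p = 0.0519). Mt2 gave -0.59 (-2.27 to 1.08) and -0.07 (-1.74 to 1.59) and was called in neither, although a fit with the myeloid score called it in control mice. The change of Mt1 was not tested against that of Mt2.

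Transcripts of other cells moved with hormone as well. The summed level of the 10 myeloid markers was 112 to 274 CPM in untreated and 551 to 1111 CPM in hormone-treated control mice, with 6 of 10 markers higher. In Jag antibody mice it was 143 to 618 CPM and 433 to 1742 CPM, with 3 of 10 higher. Brown adipocyte markers summed to 33630 to 74047 CPM in untreated and 10991 to 17821 CPM in treated control mice, 5 of 8 being lower. In Jag antibody mice the sums overlapped, at 16372 to 39639 CPM and 15389.5 to 21771 CPM, and 1 of 8, Adipoq, was lower. Of 5 endothelial markers, 4 were higher in control mice (summed 303 to 668 CPM without and 728 to 1023 CPM with hormone) and 1, Cdh5, in Jag antibody mice. None of these markers was at 0 in a whole group. All 4 proliferation markers were higher with hormone under both antibodies. With the myeloid score as a covariate the calls of Fkbp5, Zbtb16 and Mt1 held, and Mt1 was then also called in Jag antibody mice (adjusted p = 0.0196). In the same fit Mt2 was called in control mice, at -2.06 (adjusted p = 0.0123). The part of the adipocyte, endothelial and proliferation shifts in the members' changes was not tested.

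**Figure D3:**
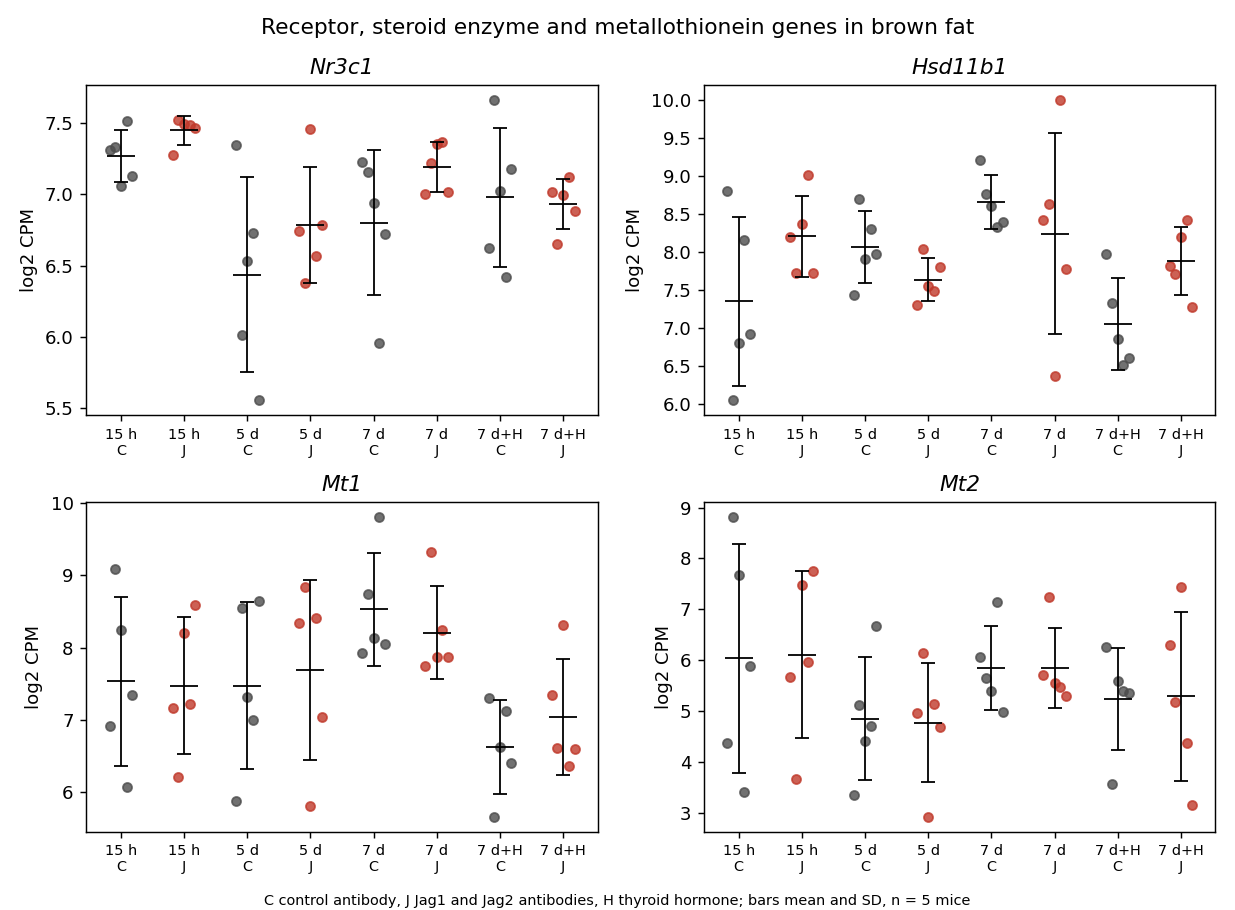
Log2 CPM (vertical axis) of Nr3c1, Hsd11b1, Mt1 and Mt2 in each of the 8 groups (horizontal axis, time after antibody). Points are mice, bars mean and SD (n = 5). Hsd11b1 and Mt1 are lower in control mice given hormone than in control mice at 7 d without overlap, and Mt2 at 15 h ranges over more than 5 log2 units among control mice.

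Over time, Zbtb16 fell in control mice and Tsc22d3 rose in Jag antibody mice. Time comparisons within one antibody share the 15 h mice, so their values are set side by side only. Against 15 h, control mice had 3 of 8 members called at 5 d (36.4% of all genes) and 2 of 8 at 7 d (45.1%), and Jag antibody mice had 1 of 8 at 5 d (14.5%) and 2 of 8 at 7 d (18.3%). A share of 3 of 8 at 5 d in control mice is close to its background, and the others rest on 1 or 2 genes.

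Zbtb16 was at 6.40, 6.64, 6.39, 5.87 and 6.24 log2 CPM in control mice at 15 h, one of the tightest groups of this gene, and at 5.30, 2.25, 4.26, 5.90 and 4.10 at 5 d, where mouse 2 was lowest. From 15 h it changed by -1.52 at 5 d (SE 0.51, edgeR adjusted p = 0.0195) and by -2.94 at 7 d (SE 0.54, adjusted p = 7.45e-05, 0.131 times the 15 h level). The 7 d and 15 h control mice did not overlap, as for 25.6% of all genes, and that call held in all 12 alternatives and leave-one-out fits. The 5 d call was lost without control mouse 2 at 15 h, control mouse 2 at 5 d or control mouse 5 at 5 d. Other fits that lost it were those without the low-count filter (edgeR adjusted p = 0.0659) and of only these groups (adjusted p = 0.0883). It was also lost without the libraries whose median correlation was under 0.90 (adjusted p = 0.0942). In Jag antibody mice the changes were -0.79 at 5 d (adjusted p = 0.278) and -1.41 at 7 d (adjusted p = 0.0485). The latter was called in 5 of 12 alternatives and held without Jag antibody mouse 10 at 15 h or mouse 6 at 7 d, but was lost without any of the other 8 mice (adjusted p up to 0.137).

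Tsc22d3 in Jag antibody mice was at 5.24, 5.36, 4.52, 5.26 and 4.93 log2 CPM at 15 h and at 6.01, 6.43, 6.31, 6.49 and 6.33 at 5 d. The 15 h mice were below all mice of 5 d and of 7 d, and 13.6% and 16.8% of all genes did not overlap in those comparisons. It rose by 1.24 at 5 d (SE 0.29, edgeR adjusted p = 0.00579) and by 1.43 at 7 d (SE 0.29, adjusted p = 0.00148), and both calls held in all 12 alternatives and all leave-one-out fits. In control mice it rose by 0.93 at 5 d (SE 0.29, adjusted p = 0.0132) and stood at -0.03 at 7 d (-0.62 to 0.55). The summed muscle markers were 2.86 to 11753 CPM in control mice at 15 h and 1018 to 175926 CPM at 5 d. With the muscle score as a covariate the 5 d change of Tsc22d3 in control mice was 0.43 (edgeR adjusted p = 0.238). When only these groups were fitted it was 0.99 and not called (adjusted p = 0.0842).

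Fkbp5 fell in control mice from 15 h to 7 d (log2 fold change -1.94, SE 0.60, edgeR adjusted p = 0.00874), to 0.260 times the earlier level. At 15 h the control mice were at 3.27, 5.92, 4.49, 3.60 and 4.10 log2 CPM, and mouse 2 was the highest. Without mouse 2 the change was -1.25 and not called (adjusted p = 0.089). All 10 myeloid markers fell over the same interval, from a sum of 299 to 6275 CPM to one of 112 to 274 CPM. With the myeloid score, the mean log2 CPM of those markers, as a covariate the Fkbp5 change was -0.59 (adjusted p = 0.547). Fkbp5 stood at -0.07 in control mice at 5 d and at -0.45 and 0.42 in Jag antibody mice at 5 d and 7 d, with no call.

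Nr3c1 was the steadiest member, with a total range of 5.56 to 7.66 log2 CPM over the 40 mice. It was lower at 5 d than at 15 h in control mice, at 7.35, 6.02, 6.53, 6.73 and 5.56 against 7.31, 7.33, 7.06, 7.51 and 7.13 log2 CPM. Mouse 1 at 5 d was within the 15 h range and the other 4 were below it. The log2 fold change was -0.71 (SE 0.24, edgeR adjusted p = 0.0223). It was -0.15 (adjusted p = 0.446) with the length and GC offsets, it was lost in 6 of 12 alternatives, and it was lost without control mouse 2 or 4 at 15 h or control mouse 2 or 5 at 5 d. The 5 d change in Jag antibody mice was -0.61 (edgeR adjusted p = 0.0801). It was called in 6 of 12 alternatives, among them DESeq2 (adjusted p = 0.0361) and the fit of only these groups (edgeR adjusted p = 0.0327).

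Hsd11b1, Mt1, Mt2 and Dusp1 were called in no time comparison as fitted over the 8 groups. Hsd11b1 gave 1.01 in control mice at 7 d (0.11 to 1.91, edgeR adjusted p = 0.061), was called in 6 of 12 alternatives (adjusted p from 0.00801 to 0.571), and was called without control mouse 1 or 4 at 15 h. Dusp1 gave -0.97 and -1.23 at 5 d in control and Jag antibody mice (adjusted p = 0.0795 and 0.0544). It was called lower in control mice with the myeloid score (edgeR adjusted p = 0.046) and with length and GC offsets (0.0453). In Jag antibody mice DESeq2 (adjusted p = 0.0232), RLE size factors (edgeR, 0.0484) and the myeloid score (edgeR, 0.0294) called it. Leaving out control mouse 1 at 15 h or 5 d, or Jag antibody mouse 6 at 15 h or mouse 8 at 5 d, also gave a call. For Mt2, control mice at 15 h had 4.37, 8.82, 7.68, 3.40 and 5.88 log2 CPM, from the highest value of the gene in mouse 2 to one of its lowest in mouse 4. The Mt2 change to 5 d was -1.96 in control mice (-3.68 to -0.23, adjusted p = 0.0671) and the change to 7 d was -1.18 (-2.87 to 0.51). With the myeloid score as a covariate the 7 d change took the opposite sign, 2.44 (adjusted p = 0.0168), and with length and GC offsets it was -2.32 (adjusted p = 0.0206). Both fits called it, in opposite directions. Mt1 at 7 d was called with the myeloid score too, at 2.46 in control and 1.62 in Jag antibody mice (adjusted p = 0.00422 and 0.0371), against 0.82 and 0.63 without it. The Mt2 change to 5 d was called in 3 of 12 alternatives. Control mouse 2 at 15 h had both the highest Mt2 level and the highest myeloid score, 8.61 against 2.55 to 6.67 in the other 4.

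Other genes of the same pathways, in lists chosen for their known roles, gave a mixed picture. Their counts are to be read against the shares of all genes called in each comparison. These shares ran from 1.14% to 8.02% for the antibodies and were 43.2% and 9.5% for hormone. Against 15 h they were 36.4% and 45.1% in control mice at 5 d and 7 d, and 14.5% and 18.3% in Jag antibody mice. Among 6 receptor partners, Nr3c2, which encodes the mineralocorticoid receptor, and the chaperone genes Fkbp4, Hsp90aa1, Hsp90ab1, Ptges3 and Stip1, only Stip1 was called in an antibody comparison. Stip1, the Hsp70 and Hsp90 organising protein, was lower with the Jag antibodies by a log2 fold change of -0.54 at 5 d and -0.78 at 7 d (edgeR adjusted p = 0.0399 and 0.00965). None of the 6 was called with hormone. Against 15 h in control mice, 1 of the 6 was higher and 1 lower at 5 d (36.4% of all genes called). At 7 d 2 were higher and 1 lower (45.1%), so these calls are near the background. In Jag antibody mice 1 was lower at 5 d (14.5%) and 2 at 7 d (18.3%). Fkbp4, which competes with Fkbp5 for the receptor complex, was 0.64 at 5 d and 1.13 at 7 d in control mice, and Stip1 was 0.62 at 7 d. Ptges3, the co-chaperone p23, was -0.61 in control and -0.65 in Jag antibody mice at 7 d. Hsp90aa1 was -1.48 in control mice at 5 d and -1.37 and -1.25 in Jag antibody mice at 5 d and 7 d.

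H6pd, which supplies NADPH to the Hsd11b1 enzyme, rose with hormone in control mice by 0.68 (SE 0.19, edgeR adjusted p = 0.00413), where Hsd11b1 fell. It was called in no other comparison. Hsd11b2, the enzyme that inactivates corticosterone, had too few counts to be tested.

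Of 12 further glucocorticoid targets, none was called in any antibody comparison at one time. With hormone in control mice 3 rose and 1 fell, 4 of 12 against 43.2% of all genes. Klf9, a transcription factor, rose by 1.39, Pdk4, a kinase that restrains pyruvate dehydrogenase, by 0.78, and Angptl4, an inhibitor of lipoprotein lipase, by 0.65. Sgk1, a kinase, changed by -0.78. None of the 12 was called with hormone in Jag antibody mice. The list's median log2 fold change was 0.15 in control and 0.22 in Jag antibody mice, against 0.04 and -0.04 over all tested genes.

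Against 15 h in Jag antibody mice, 4 of the 12 were higher, 1 lower and 7 not called at 5 d, where 14.5% of all genes were called. At 7 d 4 were again higher, 1 lower and 7 not called (18.3% of all genes). The list's median was 0.60 at 5 d and 0.18 at 7 d, against -0.02 and 0.04 over all tested genes. The lower gene was Lcn2 at both times, which encodes an iron-siderophore binding protein. Per1, a clock gene, gave 2.01 at 5 d and 2.13 at 7 d, Ddit4, an inhibitor of mTORC1, 2.18 and 1.72, and Nfkbia, an inhibitor of NF-kB, 0.72 and 0.82. Sgk1 was called at 5 d (0.81) and Glul, glutamine synthetase, at 7 d (0.77), while Lcn2 gave -6.46 and -4.38. Against 36.4% of all genes called in control mice at 5 d, 2 of 12 were lower, Angptl4 (-0.69) and Lcn2 (-4.99). At 7 d, where 45.1% of all genes were called, 2 were higher, Sgk1 (0.91) and Glul (0.93), and 4 lower, Klf9 (-0.83), Angptl4 (-0.98), Nfkbia (-0.57) and Lcn2 (-4.38). Nfkbia was the only one of the 12 called for the change in antibody effect from 15 h to 7 d (1.39, SE 0.29, edgeR adjusted p = 0.0201).

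Clock genes, Per1 among them, also moved with time. Of 9 clock genes, 6 were higher and 1 lower in Jag antibody mice at 7 d than at 15 h (18.3% of all genes called), and their summed level was 466 to 697 CPM against 135 to 412 CPM. In control mice at 7 d 1 gene of 9, Per2, was called (45.1% of all genes). With hormone the sum was 390 to 569 CPM in control and 525 to 856 CPM in Jag antibody mice. The part of collection hour in the members' changes was not tested.

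Of 7 other metallothionein and zinc genes listed, Mt4 and Slc30a10 were too low to test. With hormone in control mice, where Mt1 fell, the zinc exporter gene Slc30a1, itself a target of Mtf1, rose by 1.14 (SE 0.28, edgeR adjusted p = 0.00153) and the importer gene Slc39a14 by 1.16 (adjusted p = 0.0369). Mtf1 was called in no comparison. Against 15 h in control mice, 3 of the 5 genes tested were lower at 5 d (36.4% of all genes called) and at 7 d (45.1%). Slc30a1, the importer gene Slc39a10 and Slc39a14 gave -0.81, -0.95 and -2.03 at 5 d and -1.41, -0.78 and -1.98 at 7 d. Slc30a1 was lower at 7 d in Jag antibody mice too (-1.02), the only 1 of the 5 called there (18.3% of all genes). Mt3, a metallothionein known mainly from brain, was lower with the Jag antibodies at 5 d (-3.78, adjusted p = 0.0325) and higher at 5 d than at 15 h in control mice (3.31), the group in which muscle markers were highest.

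Among 7 other MAP kinase phosphatase genes, Dusp10 was called in the most comparisons. Apart from the 5 d call, all of these use the same control mice at 7 d, so they are not separate observations. The shares of all genes called were 2.5% for the antibodies at 7 d and 43.2% for hormone in control mice. They were 36.4% and 45.1% in control mice at 5 d and 7 d against 15 h. Dusp10 was lower with the Jag antibodies at 7 d (-1.14, edgeR adjusted p = 0.0335) and lower with hormone in control mice (-1.45). It was higher in control mice at 5 d (1.20) and 7 d (1.52) than at 15 h. Its antibody effect changed from 15 h to 7 d by -1.94 (adjusted p = 0.0218). Dusp6, an ERK phosphatase, was lower with hormone in control mice (-1.01) and at 5 d in Jag antibody mice (-1.37). Dusp5 was lower in control mice at 5 d (-2.44) and 7 d (-1.88), Dusp16 at 5 d (-0.58) and Dusp2 at 7 d (-2.13). Dusp4 and Dusp8 were called in no comparison.

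Mice of one group differed from each other in ways that several members shared. These relations were computed on log2 CPM after each group's mean was removed, over the 40 mice, with two-sided p-values from 100000 permutations within groups, and 60 relations were examined. The smallest p these permutations can give is 1e-05. Mt1 and Mt2 rose and fell together, with Pearson r of 0.891 and Spearman rho of 0.865 (permutation p = 1e-05 for both, Benjamini-Hochberg adjusted 0.0002 and 0.0006). The sign was positive in 8 of 8 groups, and without the 2 mice farthest from the median on the x axis r was 0.870.

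Mt2 also ran with the myeloid score, with r of 0.747 and rho of 0.723 (permutation p = 1e-05 and 2e-05, adjusted 0.0002 and 0.0006). That relation was positive in 8 of 8 groups and r was 0.715 without the 2 farthest mice. For Mt1 the same relation gave r of 0.576 and rho of 0.591 (permutation p = 0.00029 and 0.00055, adjusted 0.00193 and 0.00573), and 0.542 without the 2 farthest mice. Mt1 ran against the length slope, the slope of a library's log2 CPM on log2 exonic length relative to the mean library, with r of -0.652 and rho of -0.583 (permutation p = 0.00012 and 0.00068, adjusted 0.00103 and 0.00573). Its sign held in 5 of 8 groups, and r was -0.597 without the 2 farthest mice. For Mt2 the relation with the length slope was weaker, with r of -0.355 and rho of -0.335 (permutation p = 0.00778 and 0.0318, adjusted 0.0359 and 0.136), and r was -0.248 without the 2 farthest mice.

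**Figure D4:**
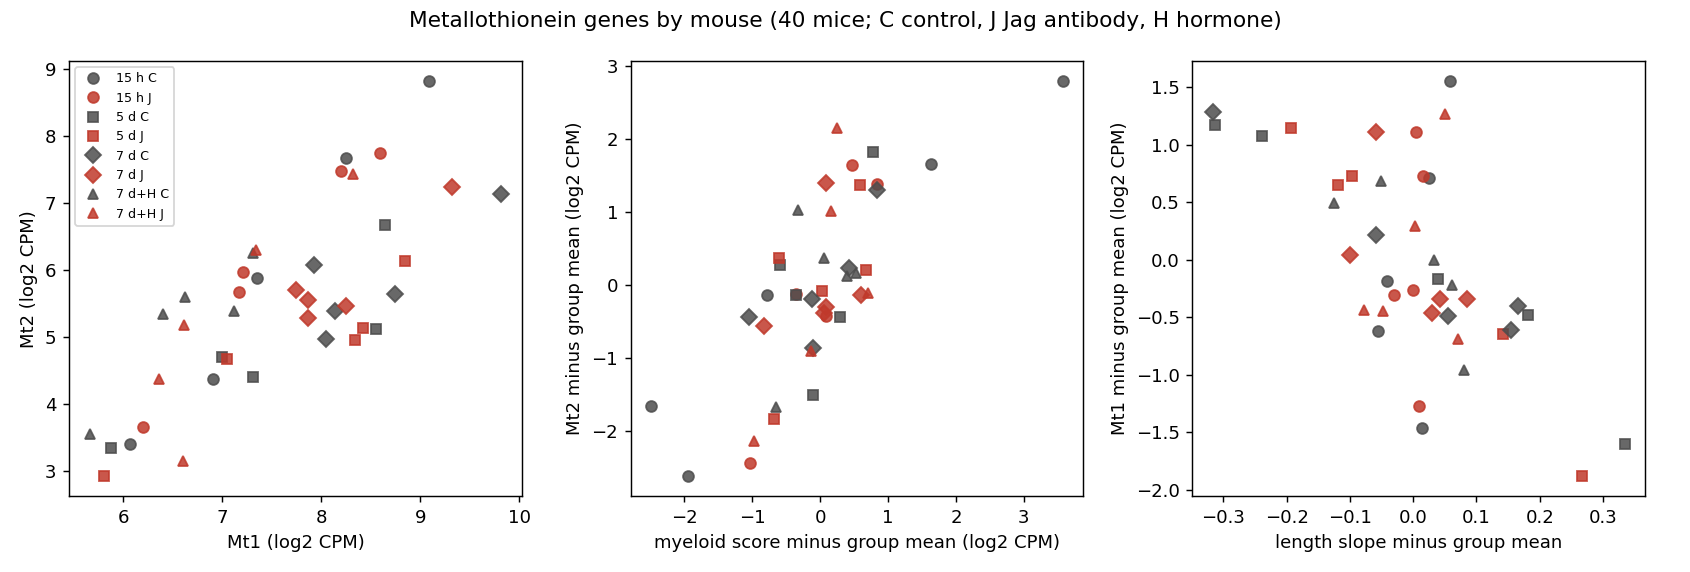
Left, Mt2 against Mt1 (log2 CPM) in 40 mice. Middle, Mt2 against the myeloid score, and right, Mt1 against the length slope, each with the mean of its group removed. Symbols mark time and hormone, colours the antibody. The left panel rises in every group (r = 0.891 with group means removed), and control mouse 2 at 15 h is at the upper right of the left and middle panels.

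Nr3c1 ran with the length slope in the other direction, with r of 0.834 and rho of 0.698 (permutation p = 1e-05 and 0.0001, adjusted 0.0002 and 0.002) and 0.760 without the 2 farthest mice. It ran against Mt1 with r of -0.641 and rho of -0.535 (permutation p = 6e-05 and 0.00129, adjusted 0.00072 and 0.00774), and r was -0.640 without the 2 farthest mice. The sign of this relation held in 6 of 8 groups. Nr3c1 has an exonic length of 7684 bp and Mt1 of 1246 bp, and the part of length in their relation was not tested. Zbtb16 also rose with the length slope (r = 0.554, rho = 0.518, permutation p = 0.00466 and 0.00428, adjusted 0.0233 and 0.0214; 0.607 without the 2 farthest). The length slope also separated groups: it was -0.542 to -0.0593 in control mice at 7 d and 0.0407 to 0.247 in control mice given hormone, and -0.159 to 0.0257 and 0.0399 to 0.188 in Jag antibody mice. With length and GC offsets the hormone calls of Fkbp5 and Zbtb16 held under both antibodies, that of Hsd11b1 held in control mice, and that of Mt1 was lost. The same fit called Nr3c1 lower with hormone in Jag antibody mice, at -0.43 (edgeR adjusted p = 0.048), against -0.26 without the offsets.

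Fkbp5 varied with Zbtb16 and with Tsc22d3 inside groups. The first relation gave r of 0.695 and rho of 0.600 (permutation p = 3e-05 and 0.00019, adjusted 0.00045 and 0.00285), positive in 7 of 8 groups, and 0.593 without the 2 farthest mice. The second gave r of 0.688 and rho of 0.553 (permutation p = 8e-05 and 0.00086, adjusted 0.0008 and 0.00573), positive in 7 of 8 groups, and 0.605 without them. Between Tsc22d3 and Zbtb16 r was 0.430 and rho 0.348 (permutation p = 0.0224 and 0.0454), which did not pass after adjustment (0.0839 and 0.170). Tsc22d3 alone among the 8 genes ran with the muscle score at an adjusted p under 0.05 (r = 0.592, rho = 0.574, permutation p = 0.00049 and 0.00061, adjusted 0.00267 and 0.00573; 0.573 without the 2 farthest).

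No relation of Dusp1 with Fkbp5 or Tsc22d3 was detected. With Fkbp5 it gave r of -0.011 and rho of -0.016 (permutation p = 0.955 and 0.934, adjusted 1 and 0.966), and with Tsc22d3 r of -0.004 and rho of 0.018 (permutation p = 0.981 and 0.920, adjusted 1 and 0.966). It ran with the immediate early score, the mean log2 CPM of Fos, Fosb, Jun, Junb, Egr1, Ier2 and Atf3, with r of 0.556 and rho of 0.552 (permutation p = 0.00043 and 0.0008, adjusted 0.00258 and 0.00573). That relation was positive in 7 of 8 groups, and r was 0.546 without the 2 farthest mice. Nr3c1 itself gave r of -0.069 and rho of -0.086 with Fkbp5 (permutation p = 0.762 and 0.630, adjusted 0.863 and 0.914).

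**Figure D5:**
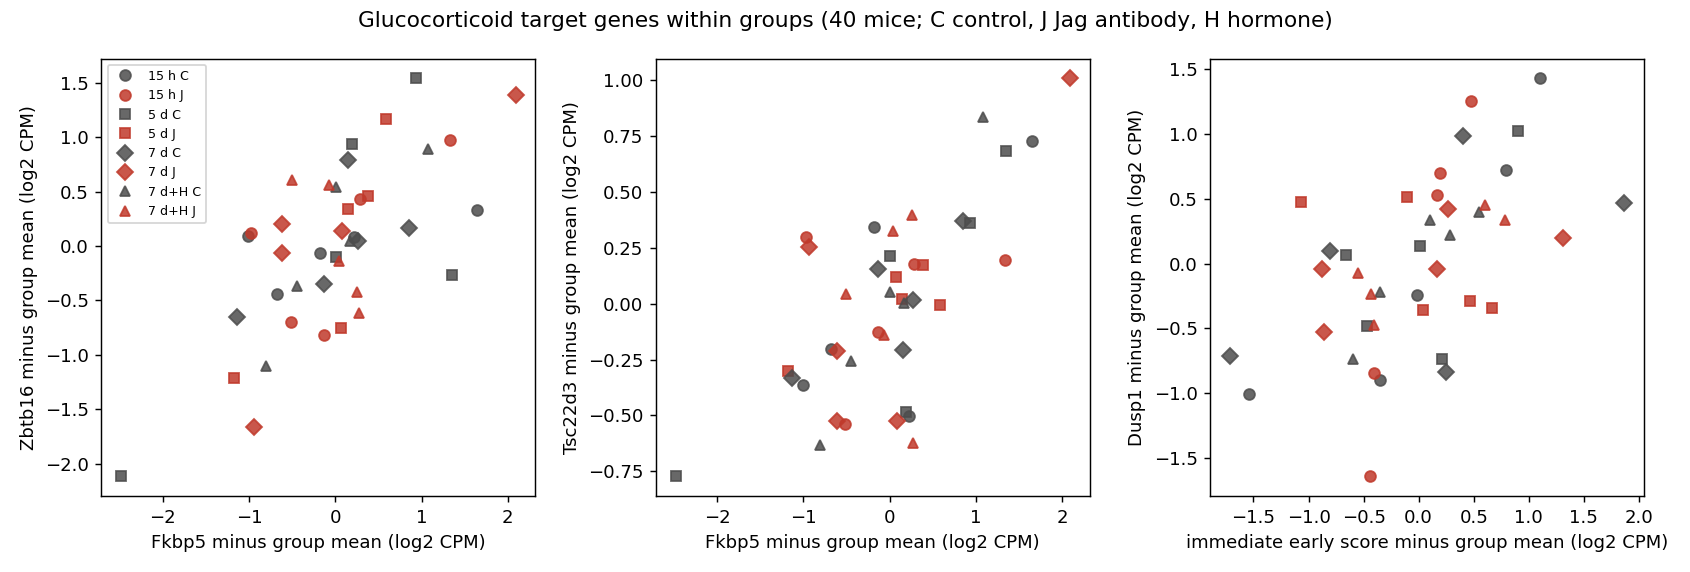
Deviations from the group mean (log2 CPM) in 40 mice, for Zbtb16 and Tsc22d3 against Fkbp5 and for Dusp1 against the immediate early score. Symbols mark time and hormone, colours the antibody. The first 2 panels rise together (r = 0.695 and 0.688), with Jag antibody mouse 6 at 7 d at the upper right and control mouse 2 at 5 d at the lower left of both.

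The genes most like each member over the 40 mice, by Pearson r of log2 CPM with group differences left in, were sought among 12132 genes with a mean of at least 1 log2 CPM. These r values are descriptions, since the mice share groups, library composition and length slope. For Nr3c1 they were Rdx (0.931), Zhx1 (0.925) and Prpf4b (0.915). Fkbp5 was most like Wbp1l (0.889), Slc2a3 (0.849) and Dusp18 (0.843), and Tsc22d3 most like Usp2 (0.791), Igfbp3 (0.766) and Plekhf1 (0.738). For Zbtb16 the nearest were Cblb (0.872), Tead1 (0.834) and Ssh2 (0.828), and for Hsd11b1 Mrpl50 (0.732), Rpp14 (0.731) and Car5b (0.718). Mt1 was nearest to Ebna1bp2 (0.872), Ercc1 (0.863) and Slc25a28 (0.848). Mt2 was nearest to Gm45774 (0.958), the gene whose exons overlap its own, then Lrg1 (0.777) and Ctla2a (0.745). Dusp1 was nearest to Dusp6 (0.718), Jun (0.702) and Egr1 (0.701).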

How the data were processed

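Total RNA was extracted with Trizol and columns and read by Illumina sequencing in single reads of 50 bp, per the labels' protocols. The authors deposited a table of whole-number counts per Ensembl gene, and an FPKM table over the same genes and mice. The submitters' processing notes name GSNAP and limma, without versions. The genome build, the counting program and its use of the strand are not given in the sources used here. From its values, the deposited FPKM divides by lengths that follow the genomic span for 6 of the 8 genes (Nr3c1 and Dusp1 differ), so it was not used to compare genes. Every column was matched to a labelled sample, and libraries are taken as 1 mouse each, so p-values measure the spread between them. In 80 pairs of mice of one group, no pair agreed within sampling noise (lowest chi-square per degree of freedom 19.4).

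Symbols matched 52403 of 52636 genes, and lengths and positions are from GENCODE M21. Counts were filtered with filterByExpr, scaled by TMM, and fitted over all 8 groups with edgeR 4.0.16 (quasi-likelihood, robust) in R 4.3.3, with Benjamini-Hochberg adjustment at 0.05. Log2 CPM used a prior count of 2. RPKM used TMM-scaled totals and exonic length. The method was tested on simulated data. The members and lists were chosen with earlier results of these data known. Every member is named in every comparison, listed pathway genes where called in at least 1 comparison, and for likeness the 3 genes of highest r. Time and hormone comparisons share title numbers 1 to 5 or 6 to 10. Correlations of same-numbered mice were not all over 0.1, running from -0.337 to 0.731. Their means per pair of groups ran from 0.0819 to 0.185. These values cannot settle whether the numbers mark a shared block, so the number was left out of the main fit and used in an alternative. Alternatives were DESeq2 1.42.0, RLE size factors, no low-count filter, the muscle or myeloid score as a covariate, limma 3.58.1 on log2(FPKM + 1) and log2(FPKM + 0.1), length and GC offsets, only the groups compared, the number as a block, each mouse left out and, chosen after seeing the data, leaving out the 3 libraries that stood apart. Fold changes from limma on log2(FPKM + pseudocount) understate changes of low genes.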

Additional observations from a re-analysis of the deposited data

Results flagged for a closer look

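Gaps within groups were examined for the 8 genes in 8 groups of 5 mice, 64 groups in all, by Dixon's criterion, by which chance marks about 1 in 20 groups. In 2 of the 64, which is not above that rate, the gap from 1 mouse to the next was large relative to the range of its group. Nr3c1 in Jag antibody mouse 6 at 15 h was at 7.27 log2 CPM, below the next mouse at 7.46. That gap is small, and it stands out because the group was tight (SD 0.10). Mt2 in Jag antibody mouse 7 at 7 d was at 7.24 log2 CPM, above the next mouse at 5.71. Mt1 was also highest in that mouse, at 9.32 against 8.25 in the next.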

How the results depend on the processing

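Of 104 results, 8 genes in 13 comparisons, 17 were called. Of these 7 were called in every alternative and without any single mouse: Fkbp5 and Zbtb16 with hormone under both antibodies, Zbtb16 in control mice from 15 h to 7 d, and Tsc22d3 in Jag antibody mice from 15 h to 5 d and to 7 d. Of the 87 uncalled results, 73 were called in no alternative or leave-one-out fit. The only reversal was Mt2 in control mice from 15 h to 7 d, 2.44 with the myeloid score as a covariate. The cause was not tested in any of these cases.

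The number of members called for the antibody at 7 d was 2, and 1 without the low-count filter, with either limma fit or without the 3 libraries that stood apart, and 0 with only the groups compared. With hormone it was 1, and 2 with DESeq2, either covariate, limma on log2(FPKM + 0.1), length and GC offsets, only the groups compared or without the 3 libraries, 3 with limma on log2(FPKM + 1), and 0 with RLE or no filter. For 5 d against 15 h it was 3 in control mice, and 1 without the filter, with the muscle score or without the 3 libraries, and 0 with only the groups compared. In Jag antibody mice it was 1, and 3 with DESeq2 or the myeloid score and 2 with RLE, either limma fit, only the groups compared or without the 3 libraries. For 7 d against 15 h it was 2 in control mice and 4 with length and GC offsets, and 2 in Jag antibody mice and 1 without the filter, with the muscle score, with limma on log2(FPKM + 1) or with only the groups compared. The change in antibody effect from 15 h to 7 d had 0, and 1 with DESeq2 or the muscle score.

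Whether the title numbers pair the mice is not settled. The replicate block on them moved the members called in Jag antibody mice from 15 h to 7 d from 2 to 1, also with length and GC offsets. With the block alone Zbtb16 fell by 1.39 and was not called (edgeR adjusted p = 0.0718). The block left the other counts of members within 1.5 times.

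Leaving out each mouse in turn gave 0 to 2 members for the antibody at 7 d, 0 to 1 with hormone, 4 for hormone in control mice, 2 in Jag antibody mice, 1 to 4 and 1 to 3 in control mice at 5 d and 7 d against 15 h, 1 to 3 and 1 to 2 in Jag antibody mice, and 0 to 1 for the antibody difference from 15 h to 7 d. It gave 0 for the antibody at 15 h and 5 d and for the other 2 differences.

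Calls over all genes, which set the background, moved more. At 15 h the antibody called 194 genes, 0 with only the groups compared, 577 with DESeq2, and with single mice left out 6 (control mouse 2 or Jag antibody mouse 10) to 683 (control mouse 1). At 5 d it was 1369, 89 with the muscle score and 1992 with DESeq2, and with single mice left out 384 (control mouse 5) to 2833 (control mouse 1). At 7 d it was 427, 35 with only the groups compared and 858 with DESeq2, and with single mice left out 144 (control mouse 2) to 912 (control mouse 3). With hormone it was 194, with a range of 117 to 662 over the alternatives and a lowest count of 79 without Jag antibody mouse 10. Hormone in Jag antibody mice called 1622 (990 to 2683). Against 15 h, control mice had 6214 at 5 d (0 to 6953) and 7698 at 7 d (4740 to 8173), and Jag antibody mice 2470 (1537 to 3758) and 3126 (1753 to 4249). The interaction had 1 (0 to 36) and the antibody differences 17 (0 to 498) and 223 (7 to 638). The lowest count of a member in a library was 29, for Fkbp5.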
